A study of Mus musculus with 48 samples.

Results

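The libraries described here are those taken at zeitgeber time (ZT) 16 and ZT12, that is 16 and 12 h after lights on, from FACS-sorted mouse pancreatic β and α cells. They were chosen by title: 8 libraries at ZT16 and 8 at ZT12, 16 of the 48 libraries of the series, which covers 6 times of day. Each combination of time, treatment and cell type held 2 libraries, so the 8 at each time were 2 each from DOX β, CTR β, DOX α and CTR α cells. All came from male mice, 6 to 8 weeks old, that carried the reporters ProGcg-Venus and RIP-Cherry, the clock reporter PER2::Luc and the ablation pair Insulin-rtTA and TET-DTA. Venus under the proglucagon promoter marks α cells and Cherry under a rat insulin promoter marks β cells, and both were used for the sort. DOX mice drank 300 mg of doxycycline in water with 2% sucrose. Doxycycline lets Insulin-rtTA, made in insulin-producing cells, switch on diphtheria toxin A from TET-DTA, so that β cells in DOX islets are those that remained after ablation. CTR mice carried the same alleles and drank water with 2% sucrose. Every mouse, CTR included, was kept in 12 h light and 12 h dark and was fed only at night, starting 10 days before the experiment, and part of the mice had been moved to an inverted schedule for 2 weeks. The step from ZT12 to ZT16 thus spans lights-off and the start of the daily meal together, and the effects of food, darkness and clock time cannot be told apart in it. No mice received doxycycline without the toxin transgene, and the labels do not say whether the 2 libraries of a group came from separate animals, so p-values measure the spread between these libraries.

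Islet cells carry their own circadian clock. The activators BMAL1 (gene Arntl) and CLOCK bind E-boxes in the genes of their own repressors, the PER and CRY proteins, and of REV-ERBα and REV-ERBβ (Nr1d1, Nr1d2), which in turn repress Arntl, while the ROR factors activate it. Meals act on the same cells through glucose, amino acids, insulin and gut hormones, which raise secretory and biosynthetic work in β cells, and fasting favours the oxidation of fatty acids and the FoxO transcription factors. Body temperature of mice rises in the dark phase, and chaperone genes and the cold-inducible RNA-binding protein genes follow body temperature in opposite directions in many tissues.

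Estimated counts summed to 22.8 to 61.8 M (M, 1000000 counts) per library at ZT16 and 18.7 to 62.6 M at ZT12, and 17303 to 19367 genes at ZT16 and 16980 to 18442 at ZT12 had a count above 0. One library of each group was sequenced in an earlier run (replicate 1, 18.7 to 27.9 M) and the other in a later, deeper run (replicate 2, 48.4 to 62.6 M). Gcg took 24.8 to 35.9% of the counts in α libraries and 0.0133 to 0.0439% in β libraries, and Ins2 took 16.5 to 23.0% in β and 0.0149 to 0.0819% in α libraries. The summed markers of δ, PP and ε cells reached 27065 to 48467 counts per M of the TMM-scaled library (CPM) in α libraries at ZT16 and 31949 to 57978 CPM at ZT12, most of it Ppy, so the α gate also held pancreatic polypeptide RNA. Summed markers of acinar cells were 16.7 to 695 CPM in β libraries at ZT16 and 4.31 to 209 CPM at ZT12, and 16.7 to 1042 CPM in α libraries at ZT16 and 10.8 to 294 CPM at ZT12. Summed macrophage and dendritic cell markers were 213 to 1736 CPM in β libraries at ZT16 and 58.6 to 1428 CPM at ZT12. No acinar or macrophage marker passed the test over the 16 libraries, but within the later run 10 acinar markers rose, and the highest sums of that run belonged to its DOX libraries at ZT16. For some of the lists the counts are also given without those 2 libraries. They are not given so for fat oxidation, insulin and FoxO signalling, autophagy, exocytosis and cyclic AMP targets. In the earlier run all 4 ZT12 libraries ran on lane 5 of the sequencer, and at ZT16 only the DOX α library did, the other 3 being on lane 6, so for 3 of the 4 pairs of that run lane and time cannot be told apart. All libraries of the later run were on lane 7.

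From ZT12 to ZT16 the clock genes Cry1 (2.54-fold) and Nfil3 and the chaperone gene Hsp90aa1 rose, and the cold-inducible gene Rbm3 (3.40-fold lower at ZT16), the clock output Dbp and the fatty acid import gene Cpt1a fell. Over the 16 libraries, with cell type and treatment and the run as blocks, 1134 of 16883 genes tested (6.72%) passed edgeR's quasi-likelihood test at a Benjamini-Hochberg adjusted p under 0.05. Of these, 471 rose (2.79% of the genes tested) and 663 fell (3.93%). The count of each list below is to be set beside these shares. Most changes were small. The median absolute log2 fold change of the 1134 genes was 0.42, 373 of the rises and 448 of the falls were under 1.5-fold, and 23 rises and 55 falls were at least 2-fold. The libraries of one cell type, treatment and run give 8 pairs of ZT16 and ZT12. Among the genes called, 273 were higher at ZT16 in all 8 pairs and 464 were lower in all 8, while 6.99% of all genes tested had a single direction in all 8. The earlier run, whose lanes mostly coincided with time, gave more calls than the later one, though not in β cells alone. Fitted alone, it gave 764 genes, 521 of them among the 1134, and the later run alone gave 41, of which 14 were among the 1134 and 10 were acinar markers. All 1134 genes had the same sign in both runs, a direction that the choice of genes from both runs partly fixes. The difference of replicate 2 minus replicate 1, that is later minus earlier run, correlated over genes between β and α cells of one time and treatment (0.230 to 0.453). Between CTR and DOX groups of one time it correlated at 0.011 (ZT12, β with β) to 0.282 (ZT16, α with α). A run effect common to all groups adds to these correlations but is taken out by the run term and within the 8 pairs. The fit and the 8 pairs treat the libraries of one time and run as otherwise independent. With limma voom in place of edgeR 1263 genes were called when all libraries were taken as independent. When the β and α libraries of one time, treatment and run were modelled as correlated (estimated correlation 0.21) 753 were called, 681 of them among the 1134. Deviations shared by CTR and DOX libraries of one time and run were not modelled in either fit.

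**Figure D1:**
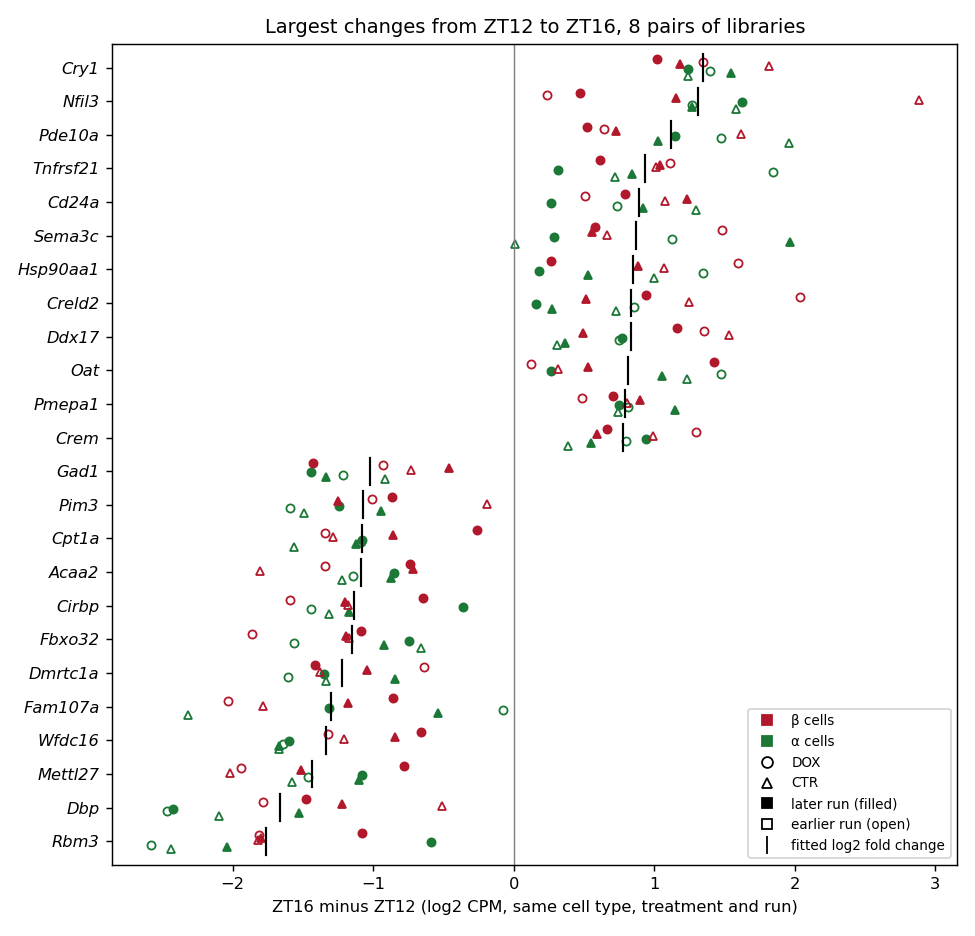
Difference between ZT16 and ZT12 in log2 CPM (horizontal axis) for the 12 largest rises and the 12 largest falls with the same direction in all 8 pairs of libraries. Each symbol is 1 pair of the same cell type, treatment and run (red β, green α, circles DOX, triangles CTR, open symbols earlier run, filled later run), and the black bar is the fitted log2 fold change; all symbols of a gene lie on 1 side of 0 because the genes were chosen so, and many filled symbols lie nearer to 0 than the open ones.

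Cry1, a core clock repressor, had the lowest adjusted p of all genes tested. At ZT16 it stood at 29.4, 19.7, 56.0 and 39.4 CPM in β libraries (DOX of the earlier and later run, then CTR of the earlier and later run), against 11.5, 9.70, 15.8 and 17.3 CPM at ZT12. In α libraries, in the same order, it stood at 33.1, 21.1, 31.3 and 28.3 CPM at ZT16 and at 12.6, 8.91, 13.2 and 9.62 CPM at ZT12. Each ZT16 library was above every ZT12 library of either cell type. The log2 fold change was 1.35 ± 0.09 (SE, adjusted p = 2.38e-06), 1.44 in the earlier run alone and 1.25 in the later run alone.

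Cry1 lies on chromosome 10 (85131700 to 85185064, minus strand, GRCm38), and its promoter holds an E-box, the CACGTG motif that CLOCK and BMAL1 bind. In RefSeq promoters of GRCm38.p6, taken from 250 bases before to 50 after each start and searched on both strands, 7.15% of 32851 promoters, and the promoters of 8.09% of 27025 genes, held CACGTG. The stretch around the motif in the Cry1 promoter, and the matching one in an upstream promoter of the clock output gene Tef, which fell, are shown with the E-box in capitals because the 2 genes moved in opposite directions.
Cry1, chr10:85185079-85185144, minus strand: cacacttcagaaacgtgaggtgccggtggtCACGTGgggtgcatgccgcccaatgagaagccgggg
Tef, chr15:81802516-81802581, plus strand: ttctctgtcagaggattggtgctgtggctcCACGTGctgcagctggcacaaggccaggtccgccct
Of the named genes that rose, 43 of 60 had a promoter in the table and 6 held the E-box. Of those that fell, 47 of 60 had one and 9 held it. A match in this window is a description and does not show that a factor binds there.

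The other clock genes moved in both directions. Among 6 activators, all of which passed the low-count filter, 3 rose, Arntl and Clock among them, and 1, Rora, fell. Arntl, which encodes BMAL1, was low in counts, with 4.48, 6.72 and 14.4 CPM as lowest, median and highest value of the 8 ZT16 libraries and 1.13, 3.54 and 5.15 CPM at ZT12. Within each cell type its ZT16 and ZT12 values did not overlap, and its log2 fold change was 1.19 ± 0.25 (adjusted p = 0.0116). Rora fell by 0.39 on the log2 scale (adjusted p = 0.0138) and was lower at ZT16 in all 8 pairs. The call of Clock, with a log2 fold change of 0.28, was lost without any 1 of 8 libraries, with adjusted p up to 0.0686. Without the earlier-run CTR α library at ZT16 or CTR β library at ZT12, 1 activator rose in place of 3.

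Of 13 clock repressors that passed the filter, 2 rose, 3 fell and 8 did not pass the test. Besides Cry1, Per2 rose by 0.60 ± 0.12 on the log2 scale (adjusted p = 0.0105) and was higher at ZT16 in all 8 pairs. Nr1d2, which encodes REV-ERBβ, fell to between 84.6 and 159 CPM at ZT16, against 147 to 234 CPM at ZT12, with no overlap within either cell type and a log2 fold change of -0.88 ± 0.08 (adjusted p = 9.37e-05). Cry2, the paralogue of Cry1, fell by 0.57 (adjusted p = 0.00228) and was lower at ZT16 in all 8 pairs. Without the later-run DOX α library at ZT16, or without both later-run DOX libraries at that time, 5 repressors fell in place of 3. The period genes did not move together. The step of Per1 was -0.32 on the log2 scale (adjusted p = 0.214) and that of Per3 -0.55 (adjusted p = 0.0893).

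Nr1d1, which encodes REV-ERBα, spread widely between β libraries. At ZT16 these held 83.3, 33.1, 466 and 104 CPM (DOX earlier and later, CTR earlier and later) and at ZT12 149, 76.4, 152 and 115 CPM. The CTR library of the earlier run at ZT16 was the only one of these pairs to lie above its ZT12 partner. In α cells Nr1d1 was at 17.0, 12.8, 17.97 and 19.2 CPM at ZT16 and at 62.7, 63.6, 51.8 and 58.2 CPM at ZT12, with no overlap. The log2 fold change was -0.15 in β cells (adjusted p = 0.90) and -1.84 in α cells (adjusted p = 0.00185), and -0.98 over the 16 libraries (adjusted p = 0.146). The difference of the 2 steps, β minus α, was 1.66 ± 0.48 on the log2 scale and did not pass the correction (adjusted p = 0.47).

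Of the 8 clock output factors that passed the filter, Nfil3 rose, Dbp and Tef fell and 5 did not pass the test. Dbp and Tef encode related activators that read D-boxes, and NFIL3 represses the same sites. Dbp was at 24.3, 17.5, 97.2 and 34.1 CPM in β libraries at ZT16 and at 83.8, 48.7, 139 and 79.4 CPM at ZT12, in the order DOX earlier and later, CTR earlier and later. In α libraries it was at 18.3, 17.8, 22.7 and 23.9 CPM at ZT16 and at 102, 95.7, 97.0 and 68.8 CPM at ZT12. It was lower at ZT16 in all 8 pairs, with a log2 fold change of -1.66 ± 0.21 (adjusted p = 5.90e-04). As for Nr1d1, the CTR β library of the earlier run was the highest of the ZT16 libraries. Nfil3 rose by 1.31 ± 0.26 (adjusted p = 0.00999), with a median of 15.7 CPM at ZT16 and 6.26 CPM at ZT12.

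Genes known to follow temperature were among the strongest movers. Rbm3 and Cirbp, RNA-binding proteins induced by mild cold, fell: Rbm3 was at 7.98 to 19.3 CPM at ZT16 and 22.8 to 68.5 CPM at ZT12, so that every ZT16 library lay below every ZT12 library. Its log2 fold change was -1.77 ± 0.18 (adjusted p = 2.02e-04), -2.17 in the earlier run alone and -1.38 in the later, where the DOX α pair differed least (15.1 CPM at ZT16 and 22.8 CPM at ZT12). Rbm3 lies on the X chromosome (8138975 to 8145880, minus strand, GRCm38). Cirbp averaged 32.6 ± 6.93 CPM at ZT16 and 73.4 ± 23.9 CPM at ZT12 (SD, n = 8 each), a log2 fold change of -1.13 ± 0.12 (adjusted p = 2.41e-04). The list of 7 cold-inducible genes held no other call, and its median log2 fold change was 0.13, against 0.01 for all genes tested.

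**Figure D2:**
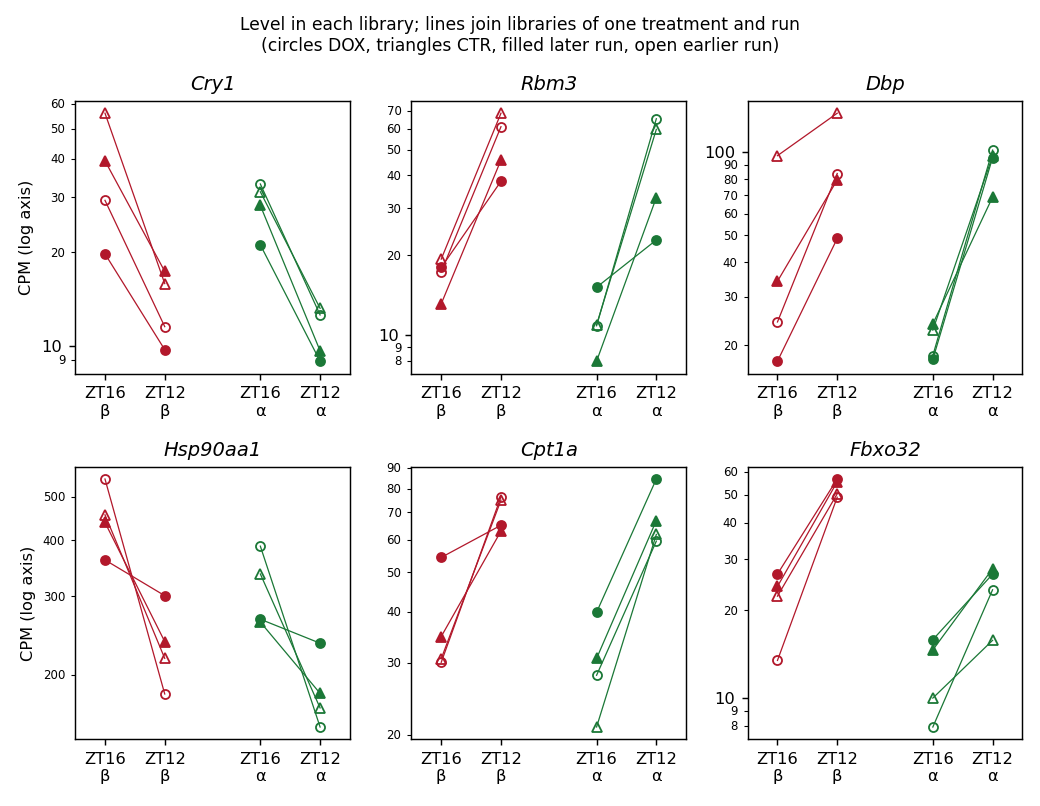
Level of 6 genes in each of the 16 libraries, in CPM on a log axis, with ZT16 left of ZT12 for β cells (red) and α cells (green); lines join libraries of the same treatment and run (circles DOX, triangles CTR, open earlier run, filled later run). All 8 lines of each gene run in 1 direction, and for Hsp90aa1 the DOX lines of the later run are the flattest in both cell types, with 361 CPM at ZT16 and 301 CPM at ZT12 in β cells.

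Heat shock factor targets, the cytosolic and mitochondrial chaperones and their helpers, rose: 16 of 27 members passed the test upward and none downward, 25 of 27 had a positive fold change, and the median log2 fold change was 0.43, against 2.79% of all genes called upward and a median of 0.01. The list holds the HSP90 genes Hsp90aa1 and Hsp90ab1, the HSP70 family members Hspa8, Hspa4, Hspa4l and Hsph1, their helpers Dnaja1, Stip1, Fkbp4, Ahsa1, Ahsa2, Chordc1 and Cacybp, the mitochondrial pair Hspd1 and Hspe1 and the factor gene Hsf1, all of which rose. Hsp90aa1, the inducible cytosolic HSP90, was at 549, 361, 456 and 438 CPM in β libraries at ZT16 (DOX earlier and later, CTR earlier and later), against 181, 301, 218 and 237 CPM at ZT12. In α libraries it was at 388, 266, 336 and 263 CPM at ZT16 and at 153, 235, 169 and 182 CPM at ZT12. The groups did not overlap within either cell type, and the log2 fold change was 0.85 ± 0.13 (adjusted p = 0.00228). Hsph1, an HSP110 that recharges HSP70, rose by 0.96 on the log2 scale (adjusted p = 0.0103), with means of 205 CPM at ZT16 and 107 CPM at ZT12. Hspa8, the constitutive HSP70, averaged 858 CPM at ZT16 and 563 CPM at ZT12 (adjusted p = 0.0353).

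The 2 runs differed in size for these genes. The median log2 fold change of the 27 was 0.59 in the earlier run, where 17 rose, and 0.25 in the later run, where none passed the test. Hsp90aa1 differed by 1.24 in the earlier and 0.47 in the later run. With β and α libraries modelled as correlated 15 rose. Neither cell type alone gave a call, with medians of 0.47 in β and 0.43 in α cells. Leaving out the 2 later-run DOX libraries at ZT16 left 16 members called and a median of 0.48, and leaving out any 1 library left 12 to 16.

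Of the 16 chaperone genes that rose, 12 had a RefSeq promoter in the table, and 6 of these held GAANNTTC, an inverted pair of heat shock element units. That motif occurred in 7.86% of the 32851 promoters of the same length and in the promoters of 9.04% of 27025 genes. The motif reads the same on both strands. The stretches are shown with the motif in capitals because chaperone genes formed the list with the highest share of rises.
Hsph1, chr5:149636266-149636325, minus strand: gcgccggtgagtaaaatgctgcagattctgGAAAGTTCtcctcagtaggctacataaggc
Chordc1, chr9:18292233-18292310, plus strand: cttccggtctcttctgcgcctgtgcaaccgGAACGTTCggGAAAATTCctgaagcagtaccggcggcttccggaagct
Fkbp4, chr6:128438770-128438837, minus strand: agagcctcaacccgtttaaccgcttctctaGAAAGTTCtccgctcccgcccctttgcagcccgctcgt
Dnaja1, chr4:40722314-40722381, plus strand: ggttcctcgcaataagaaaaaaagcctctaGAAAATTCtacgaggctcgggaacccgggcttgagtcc
Hspd1, chr1:55088034-55088101, minus strand: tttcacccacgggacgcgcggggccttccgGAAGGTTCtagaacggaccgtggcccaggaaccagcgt
Hspe1 starts in the opposite direction from the same stretch as Hspd1 and holds the same motif. Of the 43 named genes that rose and had a promoter, 6 held it (Ddx17, Fkbp4, Ghsr, Hspd1, Idi1 and Pde10a). None of the 47 named genes that fell and had a promoter held it. These are descriptions of the letters in the window.

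Genes of the endoplasmic reticulum (ER) unfolded protein response, which fold and check secretory proteins such as proinsulin, rose as well. Of 35 members, 12 rose, against 2.79% of all genes tested, none fell, 32 had a positive fold change, and the median log2 fold change was 0.23. They were the ER chaperones Hspa5 (BiP), Hsp90b1, Hyou1 and Dnajb11, the disulfide isomerases Pdia4 and Pdia6, the lectins Calr and Canx, the helpers Sdf2l1, Dnajc3 and Creld2, and the stress sensor Ern1 (IRE1α). Pdia6 was at 947, 886, 635 and 767 CPM in β libraries at ZT16 (DOX earlier and later, CTR earlier and later) and at 461, 740, 325 and 526 CPM at ZT12. In α libraries it was at 407, 255, 366 and 336 CPM at ZT16 and at 215, 227, 204 and 243 CPM at ZT12, and it was higher at ZT16 in all 8 pairs, with a log2 fold change of 0.65 ± 0.12 (adjusted p = 0.00701). Creld2 had the largest log2 fold change of the list, 0.83 ± 0.19 (adjusted p = 0.0173), 1.19 in β and 0.49 in α cells. Hspa5 averaged 2006 CPM at ZT16 and 1315 CPM at ZT12 (adjusted p = 0.037). The median of the 35 was 0.34 in the earlier run alone, against 0.10 in the later one, and 7 rose in place of 12 when the earlier-run CTR α library at ZT16, the earlier-run DOX β library at ZT16 or the earlier-run CTR β library at ZT12 was left out. Without the 2 later-run DOX libraries at ZT16, 17 rose. Of the genes that bring proteins into the ER, 1 of 25 rose (Rpn1), with a median of 0.13. Of those that carry them to the Golgi, 1 of 36 rose (Sec23b), with a median of 0.12. Both counts were near the 2.79% of all genes tested that rose. Without the later-run DOX α library at ZT16, 5 rose in each of these 2 lists, and without both later-run DOX libraries at ZT16 8 and 6 rose. The call of Rpn1 was lost without any 1 of 8 libraries and that of Sec23b without any 1 of 12. With β and α libraries modelled as correlated, 10 of the unfolded protein response genes rose in place of 12.

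Genes of ribosome biogenesis, which process ribosomal RNA and assemble the subunits, rose in 12 of 36 members and fell in none, with a median log2 fold change of 0.21. Of all genes tested, 2.79% rose. The 12 were Heatr1, Bop1, Ddx21, Noc2l, Nolc1, Tsr1, Rrp12, Nop56, Nop58, Wdr43, Utp20 and Gnl3. Heatr1, which promotes ribosomal RNA transcription, had 18.7, 29.2 and 41.1 CPM as lowest, median and highest value at ZT16 and 13.9, 19.5 and 29.9 CPM at ZT12. It was higher at ZT16 in all 8 pairs, with a log2 fold change of 0.51 ± 0.09 (adjusted p = 0.00701) that was nearly the same in the earlier run (0.48) and the later run (0.53). Ddx21, a nucleolar helicase, likewise differed by 0.32 in the earlier and 0.35 in the later run (adjusted p = 0.0103 over both). Rrp12 had the largest fold change of the 12, 0.71. The count was 7 in place of 12 without the earlier-run DOX β library at ZT16, CTR β library at ZT16, DOX α library at ZT12 or CTR β library at ZT12, 8 without the 2 later-run DOX libraries at ZT16, and 7 with β and α libraries modelled as correlated. No ribosome biogenesis or unfolded protein response gene rose in β or in α cells alone, and 1 of each list fell in α cells. Among 23 translation factors, 2 rose and 3 fell, including Eif4b, which averaged 249 CPM at ZT16 and 410 CPM at ZT12 and was lower at ZT16 in all 8 pairs (log2 fold change -0.64, adjusted p = 0.00281). The other 4 calls of that list were unstable: 0 to 6 factors rose and 1 to 3 fell when 1 library was left out, with 6 rises without the later-run DOX α library at ZT16 and also without both later-run DOX libraries at that time.

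Genes of fasting and fat oxidation fell: 8 of 30 members passed the test downward and none upward, against 3.93% of all genes called downward, 27 of 30 had a negative fold change and the median log2 fold change was -0.30. The 8 were the carnitine shuttle genes Cpt1a and Slc25a20, the β-oxidation enzymes Eci2, Decr1, Acadl and Acadvl, the fat cell lipase gene Pnpla2 and the mitochondrial carrier Ucp2. Cpt1a, the outer membrane gate for fatty acids into mitochondria, was at 30.1, 54.4, 30.7 and 34.8 CPM in β libraries at ZT16 (DOX earlier and later, CTR earlier and later) and at 76.5, 65.1, 75.0 and 63.0 CPM at ZT12. In α libraries it was at 28.0, 39.9, 20.9 and 30.8 CPM at ZT16, against 59.6, 84.5, 61.9 and 66.9 CPM at ZT12. Neither cell type showed an overlap, and the log2 fold change was -1.08 ± 0.12 (adjusted p = 2.41e-04), -1.34 in the earlier and -0.83 in the later run. Acaa2, the mitochondrial thiolase that ends each round of β-oxidation, was not on the list and fell by the same amount, 1.08 (adjusted p = 2.85e-04). All 8 members were lower at ZT16 in all 8 pairs, and 8 to 10 members fell when any 1 library was left out. As for Cpt1a, the falls were smaller in the later run for Eci2 (-0.54, against -0.88 in the earlier run), Pnpla2 (-0.38 and -0.55) and Acadl (-0.29 and -0.63). They were nearly equal for Slc25a20 (-0.60 and -0.63) and Decr1 (-0.40 and -0.43). In β cells alone no member passed the test (median -0.18).

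Some other genes known to rise in fasting fell with them. Fbxo32, a ubiquitin ligase gene induced by FoxO factors in muscle, was at 13.4, 26.6, 22.4 and 24.1 CPM in β libraries at ZT16 and at 49.0, 56.6, 50.3 and 55.4 CPM at ZT12, with no overlap, and its log2 fold change over the 16 libraries was -1.15 ± 0.12 (adjusted p = 2.38e-04). Of 24 genes of insulin and FoxO signalling, 4 fell (Klhl24, Foxo3, Pik3ip1 and Insr) and 1, Pik3r3, rose. Of all genes tested 3.93% fell and 2.79% rose. The median log2 fold change of this list was small, -0.15 to -0.05 in the fits without 1 library. Foxo3, a FoxO factor, fell by 0.40 (adjusted p = 0.00499) and Klhl24 by 1.02 (adjusted p = 0.00541), each in 7 of 8 pairs. Pik3ip1, Insr and Pik3r3 lost their calls in 7, 13 and 14 of the 16 fits without 1 library, with adjusted p up to 0.111, and 2 genes of the list fell without the later-run DOX β library at ZT16 or any 1 of 6 other libraries. Of 36 genes of autophagy and lysosomes, 9 fell, against 3.93% of all genes tested, and none rose, though the median of the list was -0.08. They were the autophagy kinases Ulk1 and Ulk2, the ATG8 family members Gabarapl1 and Map1lc3b, the mitophagy receptors Bnip3 and Bnip3l, Wipi2 and the nutrient sensing genes Rragd and Flcn. Bnip3 fell by 0.39 (adjusted p = 0.00288) and Gabarapl1 by 0.45 (adjusted p = 0.0072), each lower at ZT16 in all 8 pairs. Without the earlier-run CTR β library at ZT12, 5 of the 36 fell.

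Carbohydrate response genes did not rise in this step. Of 16, none rose (1 did without the earlier-run DOX β library at ZT12) and 3 fell: the liver type pyruvate kinase gene Pklr by 0.64 (adjusted p = 0.00701), Gpd1 by 0.30 (adjusted p = 0.00804) and Klf11, a Krüppel-like repressor, by 0.91 ± 0.10 (adjusted p = 2.15e-04). Klf11 was at 23.4, 30.4, 21.6 and 22.0 CPM in β libraries at ZT16 and at 48.1, 56.3, 38.3 and 36.3 CPM at ZT12. In α libraries it was at 28.8, 59.8, 36.1 and 51.0 CPM at ZT16 and at 77.1, 97.0, 73.2 and 85.8 CPM at ZT12, so that neither cell type overlapped. Of 27 genes of glucose entry and glycolysis, Pgk1 rose and Pdk2, Aldoc and Pfkm fell, where 2.79% of all genes tested rose and 3.93% fell. Pdk2, a kinase that shuts off pyruvate dehydrogenase, fell by 0.65 (adjusted p = 0.00289) and was lower at ZT16 in all 8 pairs. The call of Pfkm was lost in 7 of the 16 fits without 1 library (adjusted p up to 0.0642). Without the later-run CTR β library at ZT12 5 glycolysis genes fell in place of 3, without the later-run DOX β library at ZT16 2 rose in place of 1, and without both later-run DOX libraries at ZT16 3 rose and 4 fell.

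Some genes of lipid synthesis rose, where 2.79% of all genes tested did, and most of these calls depended on single libraries. Of 18 genes of fatty acid synthesis, Elovl6, Acly and Scd2 rose and none fell, with a median log2 fold change of 0.09. Elovl6, a fatty acid elongase, rose by 0.53 ± 0.10 (adjusted p = 0.00661) and was higher at ZT16 in all 8 pairs. Acly, which makes cytosolic acetyl-CoA from citrate, lost its call without the earlier-run DOX β library at ZT16 or the earlier-run CTR β library at ZT12 (adjusted p up to 0.0603), and 1 gene rose in place of 3 there. Scd2, a desaturase, lost its call in 12 of the 16 fits without 1 library (adjusted p up to 0.0872) and with no replicate block, that is without the run term (adjusted p = 0.0708). Without both later-run DOX libraries at ZT16, 5 genes of the list rose and 1 fell. Of 26 genes of sterol synthesis and uptake, Sc5d, Lss, Sqle, Idi1 and Cyp51 rose and none fell, and the median was 0.22, with 0.21 in the earlier and 0.19 in the later run. Their adjusted p lay between 0.0208 and 0.0417, and leaving out 1 library left 1 to 6 of the 26 called, fewer than 3 for 13 of the 16 libraries. With β and α libraries modelled as correlated none of the 26 was called. No sterol gene passed the test in either run alone, and 10 did without the 2 later-run DOX libraries at ZT16.

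Of 19 targets of cyclic AMP that passed the filter, 3 rose (Pde10a, Crem and Pde4b) and 1, Rgs2, fell. Of all genes tested 2.79% rose and 3.93% fell, so the single fall was near the share of all genes. Pde10a, a phosphodiesterase that degrades cyclic AMP and cyclic GMP, was at 74.0, 94.6, 99.8 and 102 CPM in β libraries at ZT16 and at 47.3, 65.8, 32.5 and 61.4 CPM at ZT12. In α libraries it was at 23.5, 43.0, 27.4 and 33.5 CPM at ZT16 and at 8.40, 19.4, 7.01 and 16.4 CPM at ZT12, with no overlap in either cell type and a log2 fold change of 1.12 ± 0.14 (adjusted p = 7.80e-04). Crem, whose inducible products repress cyclic AMP targets, rose by 0.78 ± 0.09 (adjusted p = 4.35e-04) in all 8 pairs. Rgs2, which curbs Gq signalling, fell by 1.40 ± 0.29 (adjusted p = 0.0115), with 30.3, 54.7 and 84.6 CPM as lowest, median and highest value at ZT16 and 68.5, 132 and 284 CPM at ZT12. Without the later-run DOX β library at ZT16 or the later-run DOX α library at ZT12, 5 targets rose in place of 3, and without the later-run DOX α library at ZT16, 2 fell in place of 1. Of 26 targets of the glucocorticoid receptor, Fkbp5 (by 0.51, adjusted p = 0.00293) and Klf9 (by 0.59, adjusted p = 0.00939) fell and none rose. Of all genes tested 3.93% fell, and the median of the list was -0.31. In the single-library omissions 2 to 5 of the 26 fell, the highest count coming without the later-run DOX β library at ZT16, and 6 fell without both later-run DOX libraries of that time.

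Hormone genes did not pass the test. Over the 16 libraries the log2 fold change was 0.16 for Gcg, -0.14 for Ins1, -0.08 for Ins2, 0.00 for Iapp and 0.20 for Sst, with adjusted p between 0.515 and 0.99. These values take in both cell types, also the one that holds only traces of the hormone's RNA. Ppy differed by -0.24 in the earlier run alone and by 0.06 in the later. None of 23 genes of hormones and their processing was called. In β libraries Ins2 was at 190008, 145776, 181150 and 205143 CPM at ZT16 and at 163168, 244637, 220492 and 172505 CPM at ZT12, so the groups overlapped. None of 20 β-cell and none of 12 α-cell transcription factor genes was called, though 1 β-cell factor rose without the later-run DOX β library at ZT16, the later-run CTR α library at ZT12 or the earlier-run DOX β library at ZT12, and 2 rose and 1 fell without both later-run DOX libraries at ZT16. No call was made among 8 mitochondrially encoded and 22 interferon response genes. At an unadjusted p under 0.05 stood 3645 of all genes tested, and DESeq2 called 1 hormone processing gene upward and 1 downward. Of 36 immediate early genes 1, Gadd45b, fell, by 0.86 (adjusted p = 0.00839), a count near the 3.93% of all genes tested that fell. Of 15 D cyclins and inhibitors of cyclin-dependent kinases 1, Ccnd1, rose, by 0.63 ± 0.09 (adjusted p = 0.00185), with a median of 275 CPM at ZT16 and 190.2 CPM at ZT12. Of 32 exocytosis genes, Syt5, Unc13a, Syt4 and Exoc5 rose and Cplx2, Vamp2 and Rab37 fell, where 2.79% of all genes tested rose and 3.93% fell. Syt5, a calcium sensor of secretory vesicles, rose by 0.62 ± 0.11 (adjusted p = 0.00464), and Cplx2, a regulator of vesicle fusion, fell by 0.34 (adjusted p = 0.00867). The calls of Unc13a, Syt4, Vamp2 and Rab37 were lost in 3, 8, 1 and 11 of the 16 fits without 1 library, and 1 exocytosis gene rose in place of 4 without the earlier-run DOX α library at ZT12 or CTR α library at ZT16.

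**Figure D3:**
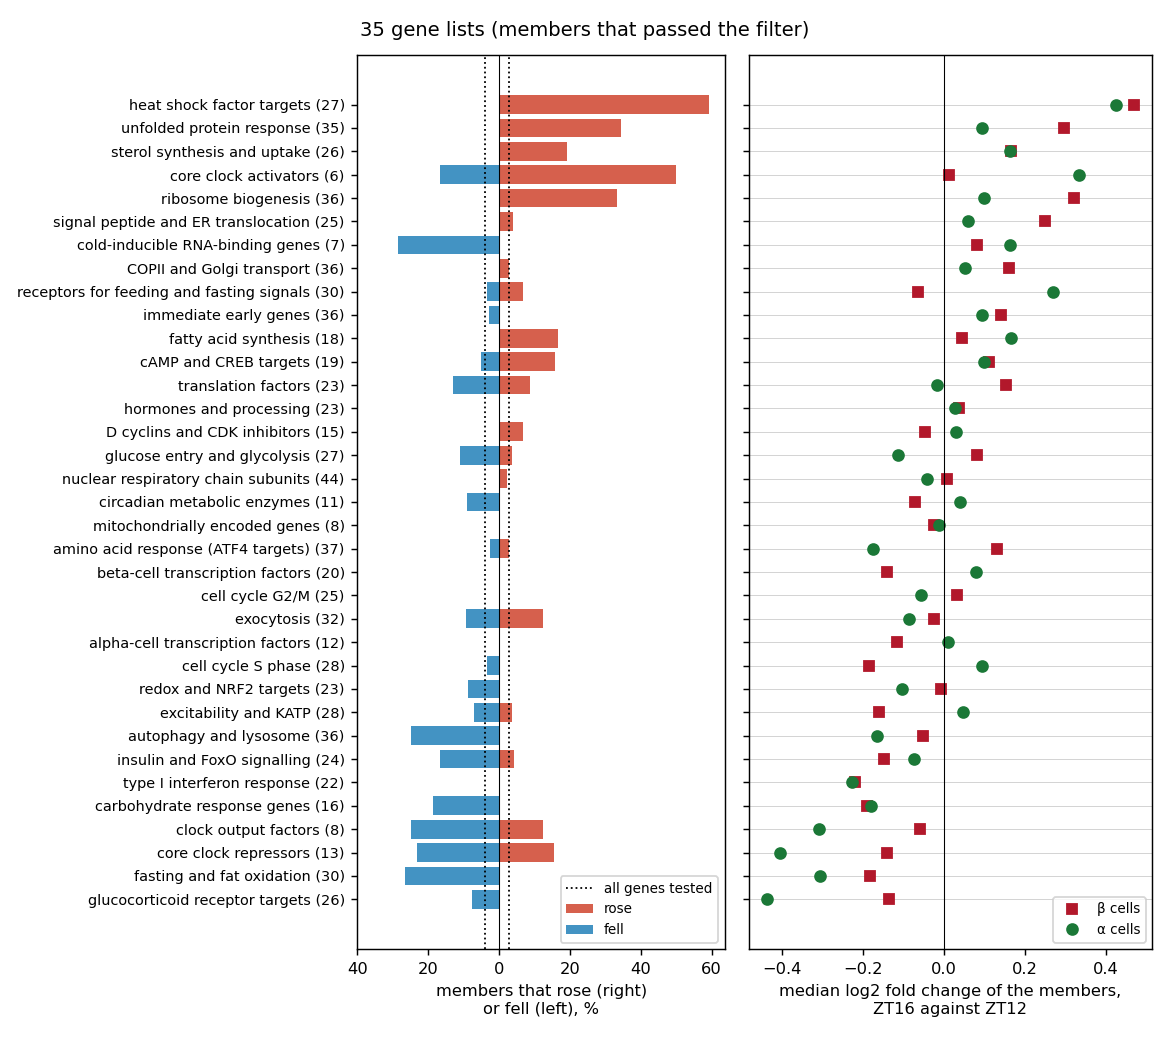
Left, share of the members of each of 35 gene lists that rose (right of 0) or fell (left of 0) from ZT12 to ZT16 over the 16 libraries, with dotted lines at the 2.79% and 3.93% of all genes tested; right, median log2 fold change of the members in β cells (red squares) and α cells (green circles) fitted apart. The number of members that passed the filter stands behind each name; heat shock factor targets have the highest share of rises (16 of 27) and the highest medians in both cell types.

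Genes outside the lists with large changes included Tnfrsf21 (death receptor 6), which rose by 0.93 ± 0.14 (adjusted p = 0.00178), the RNA helicase Ddx17, which rose by 0.83 (adjusted p = 0.00289) and the kinase gene Pim3, which fell by 1.07 (adjusted p = 2.38e-04). Ddx17 was at 215 to 339 CPM at ZT16 and 117 to 203 CPM at ZT12, with no overlap. Gad1, which makes GABA, was a β-cell gene here and fell by 1.02 ± 0.14 (adjusted p = 0.00146). Its levels in β libraries were lower in DOX than in CTR cells at both times: it was at 12.6 and 8.19 CPM in DOX and 93.4 and 47.0 CPM in CTR cells at ZT16, and at 24.0 and 22.2 CPM in DOX and 155 and 64.7 CPM in CTR cells at ZT12. Mettl27, Wfdc16 and Dmrtc1a fell by 1.44, 1.33 and 1.22, each with adjusted p under that of Cpt1a and each lower at ZT16 in all 8 pairs.

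In β cells alone 8 of 16083 genes passed the test (0.0497%), 3 up (0.0187%) and 5 down (0.0311%), and all 8 were among the 1134 of the joint fit (0.706% of them). Cry1, Tnfrsf21 and Tubb2a rose, and Rbm3, Fbxo32, Otoa, Glb1l2 and Klf11 fell. Their adjusted p lay just under the threshold, the lowest at 0.0479, with 2570 genes at an unadjusted p under 0.05. Tubb2a, a β-tubulin, was at 53.5, 45.5, 53.8 and 49.6 CPM at ZT16 and at 35.2, 29.1, 33.4 and 31.7 CPM at ZT12. Glb1l2, a β-galactosidase relative, was at 52.0, 75.5, 48.5 and 59.6 CPM at ZT16 and at 120, 121, 128 and 121 CPM at ZT12. In each of these 2 genes the groups lay apart. The count rested on single libraries. It was 156 without the later-run DOX library at ZT16, the one with the highest summed acinar (695 CPM) and macrophage (1736 CPM) markers of the ZT16 β libraries, and 0 to 3 without any other single library. The later run alone gave 216 genes in β cells and the earlier run alone none. The part of other cell types in these counts was not tested.

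In α cells alone 144 of 15704 genes passed the test (0.917%), 22 up (0.14%) and 122 down (0.777%). Of these 144, 120 were also called over the 16 libraries, 83.3% of the α list and 10.6% of the joint one. The largest rises among the genes of at least 10 CPM with 1 direction in all 4 pairs were Nfil3 (1.43), Pde10a (1.39) and Cry1 (1.36), followed by Oat, Ypel2, Peg10, Fam84a and Scd2. The largest falls were Dbp (-2.14), Rbm3 (-1.91), Nr1d1 (-1.84) and Wfdc16 (-1.66). Peg10, an imprinted gene derived from a retrotransposon, was at 172, 123, 164 and 150 CPM at ZT16 (DOX earlier and later, CTR earlier and later) and at 79.7, 60.6, 93.5 and 78.9 CPM at ZT12, with no overlap. Wfdc16, a small secreted protease inhibitor by its domain, was at 8.61, 5.44, 8.13 and 5.50 CPM at ZT16 and at 26.9, 16.6, 25.9 and 17.6 CPM at ZT12. Of the fat oxidation list 5 members fell in α cells alone, with a median of -0.31. This count too rested on single libraries. It was 400 without the later-run DOX library at ZT16, which had the highest acinar marker sum (1042 CPM), and 6 to 61 without any other library except the later-run CTR one at ZT16 (108). The earlier run alone gave 722 genes in α cells and the later run alone none, so that no count of 1 cell type was borne out in both runs.

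Whether the step differed between the cell types was tested over the 16 libraries as an interaction, β minus α. None of 16883 genes passed (0.0%), with 1155 at an unadjusted p under 0.05, a lowest adjusted p of 0.286 and 84 calls with DESeq2. With limma voom no gene passed when β and α libraries were taken as independent and 22 passed when those of one time, treatment and run were modelled as correlated (estimated correlation 0.342), 9 with a positive and 13 with a negative difference. All 22 had the same sign in edgeR, with adjusted p of 0.286 to 0.36 there. The difference between cell types therefore depends on how the shared deviations are modelled, and Spon2, Fh1 and Rfx6, described next, passed in the correlated fit (adjusted p = 0.017 each). All 1123 genes of the joint list that were fitted in both cell types had the same sign in β and α cells, a direction that the choice of genes by their joint change partly fixes. The lowest p belonged to Spon2, an extracellular matrix protein. In β libraries it was at 18.3, 26.2, 5.01 and 8.66 CPM at ZT16 and at 37.5, 43.0, 18.3 and 20.4 CPM at ZT12, and in α libraries at 96.9, 94.0, 77.3 and 84.9 CPM at ZT16 and at 86.9, 97.9, 72.9 and 84.9 CPM at ZT12. Its step differed by -1.24 ± 0.19 (adjusted p = 0.286). Fh1, the fumarase of the citric acid cycle, was at 241, 129, 233 and 246 CPM in β libraries at ZT16, against 96.6, 68.2, 94.4 and 100.02 CPM at ZT12, and at 68.4, 52.8, 73.2 and 71.3 CPM in α libraries at ZT16, against 64.3, 58.1, 71.2 and 64.2 CPM at ZT12 (difference 1.17 ± 0.19, adjusted p = 0.286). Rfx6, an islet transcription factor, had a log2 fold change of -0.45 in β and 0.45 in α cells (difference -0.92 ± 0.16, adjusted p = 0.286). For Rgs2 the step was -2.16 in β and -0.59 in α cells, and for Pdia4 1.11 and 0.28, with adjusted p of the difference at 0.351 and 0.418. For Dbp the step was -1.22 in β and -2.14 in α cells (difference 0.89 ± 0.28, adjusted p = 0.501). For Cry1 and Rbm3 the difference was smaller than its error (-0.04 ± 0.17 and 0.26 ± 0.37).

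**Figure D4:**
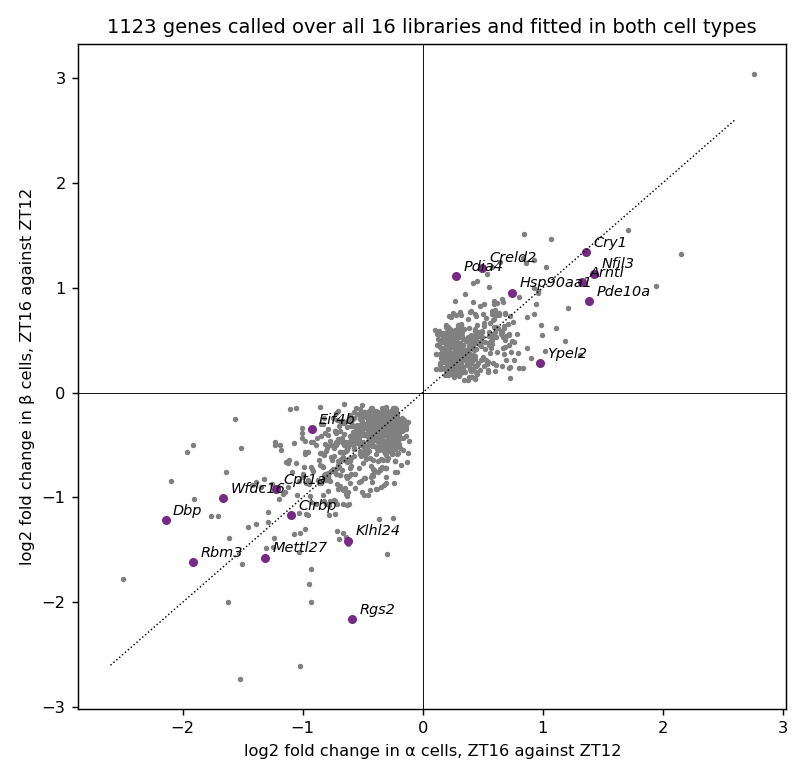
Log2 fold change from ZT12 to ZT16 in β cells (vertical) against that in α cells (horizontal), fitted apart, for the 1123 genes called over all 16 libraries and fitted in both cell types, with 17 genes named and the dotted line marking equal change. All points lie upper right or lower left of the origin, which the choice of genes by their joint change partly fixes; Rgs2, Pdia4 and Creld2 lie farther from 0 in β cells, and Dbp, Eif4b and Ypel2 farther from 0 in α cells.

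Doxycycline treatment was compared in the same way, as the difference of the step between DOX and CTR mice within each cell type. No gene passed in β cells (0 of 16083, 0.0%) or in α cells (0 of 15704, 0.0%), with 396 and 406 genes at an unadjusted p under 0.05. DESeq2 called 10 genes in β and 0 in α cells. With 2 libraries a group the test had little to go on, and most steps were wide in their error. For Cry1 the step in DOX minus that in CTR was -0.29 ± 0.27 in β and -0.07 ± 0.24 in α cells, and for Hsp90aa1 it was -0.04 ± 0.40 and -0.01 ± 0.36. The lowest p in β cells belonged to Trpm5, a calcium-activated cation channel of β cells. It was at 11.4 and 7.44 CPM in DOX and 95.3 and 62.1 CPM in CTR β libraries at ZT16, and at 22.3 and 15.4 CPM in DOX and 95.5 and 52.4 CPM in CTR β libraries at ZT12. Its DOX minus CTR step was -1.11 ± 0.18 and did not pass the correction in edgeR (adjusted p = 1). Trpm5 was among the genes that DESeq2 called (adjusted p = 0.00538).

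Set beside the other steps of the day in a fit of all 48 libraries, with 18407 genes tested, the step from ZT12 to ZT16 called 1274 genes (6.92%). The steps from ZT0 to ZT4 and from ZT20 to ZT0 called 1311 (7.12%) and 1732 (9.41%). The others called few: 5 from ZT4 to ZT8 (0.0272%), 155 from ZT8 to ZT12 (0.842%) and 3 from ZT16 to ZT20 (0.0163%). Both replicates of ZT0 came from the later run, so its 2 steps rest partly on the run term, and no difference between these counts was tested. The steps share their times with their neighbours.

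Cry1 averaged 39.7, 22.1, 13.8, 12.3, 32.3 and 45.6 CPM at ZT0, ZT4, ZT8, ZT12, ZT16 and ZT20, so that ZT12 held its lowest mean and the step to ZT16 its steepest rise. Nfil3 likewise was lowest at ZT12, with 36.5, 29.6, 17.3, 7.63, 18.6 and 27.7 CPM at the same times. Dbp was highest at ZT12, with 18.4, 24.7, 63.9, 89.2, 32.0 and 30.03 CPM. Hsp90aa1 averaged 231, 197, 160.3, 209, 382 and 383 CPM. Its rise from ZT12 to ZT16 was followed by no change to ZT20 (0.00, adjusted p = 0.998) and a fall to ZT0 (-0.79, adjusted p = 2.19e-04). Rbm3 ran the other way, at 30.6, 41.4, 63.9, 49.2, 14.1 and 9.59 CPM, and rose by 1.88 from ZT20 to ZT0 (adjusted p = 6.09e-07). Cpt1a averaged 36.3, 51.9, 72.3, 69.1, 33.7 and 29.2 CPM, and the fall after ZT12 was its only step downward past the test.

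By list, 15 of the 27 heat shock factor targets rose from ZT12 to ZT16, where 2.74% of all genes tested rose, and 15 fell from ZT20 to ZT0, where 4.16% fell, and of the 35 unfolded protein response genes 15 rose and 13 fell in these steps. Fat oxidation genes fell in 9 of 30 from ZT12 to ZT16, where 4.18% of all genes fell. Glucocorticoid targets rose in 7 of 26 from ZT8 to ZT12, where 0.549% of all genes rose, and 4 fell and 1 rose from ZT12 to ZT16.

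**Figure D5:**
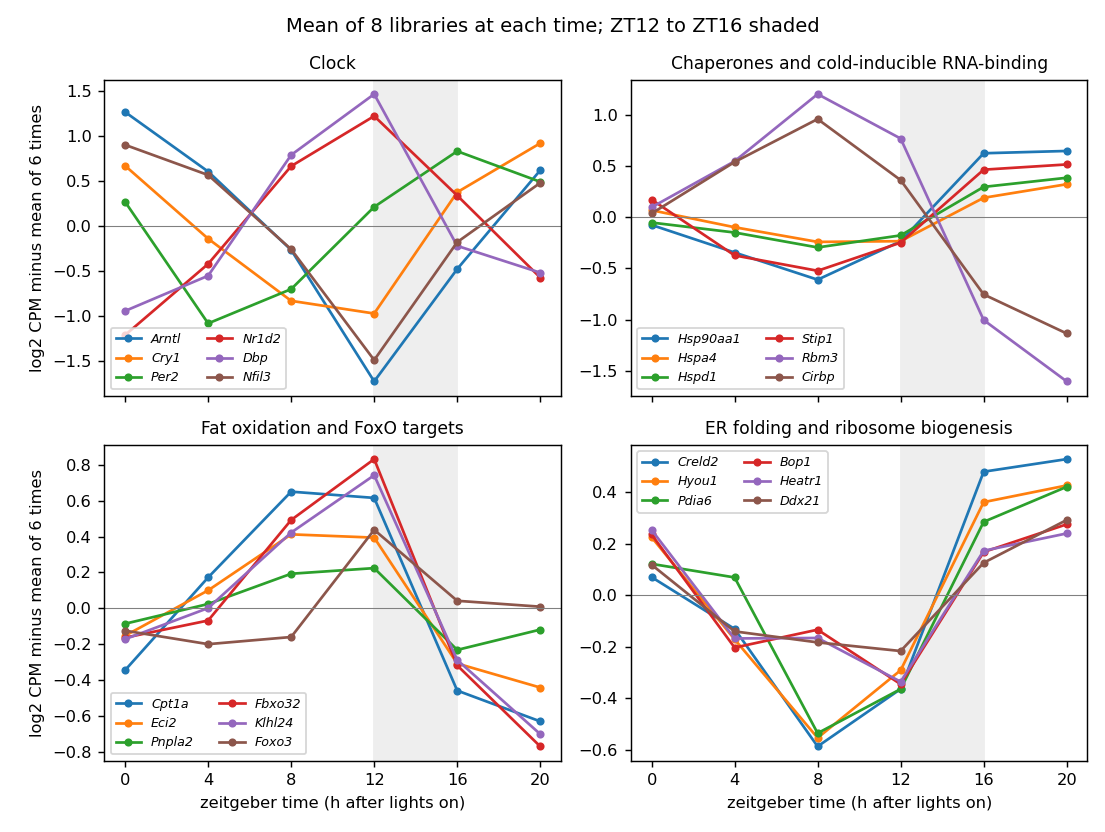
Mean of the 8 libraries at each of the 6 times of day for 24 genes in 4 groups, as log2 CPM minus the mean of the 6 times, with ZT12 to ZT16 shaded. Cry1, Arntl and Nfil3 and the chaperone and ER folding genes step up in the shaded span, and Dbp, Nr1d2, Rbm3, Cirbp, Cpt1a and Fbxo32 step down.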

How the data were processed

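RNA-seq libraries were made with a kit that does not mark strand, per the labels' protocols, so overlapping and antisense genes cannot be told apart. The submitters' processing notes name bcl2fastq, the aligner STAR and the build GRCm38. The authors deposited estimated counts for 42713 genes, in 1 table per run; the counting program is not given in the sources used here. Low values were nearly all even, so counts may hold both reads of a fragment; halved counts were tried. RPKM tables were not used.

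Counts were rounded and tested with edgeR 4.0.16 (R 4.3.3; quasi-likelihood F test, TMM, filterByExpr with minimum count 10 and minimum total 15, Benjamini-Hochberg threshold 0.05). The 16-library fit had the 4 conditions and the run as blocks, and fits of 1 cell type had treatment and run. DESeq2 1.42.0, limma 3.58.1 voom, with and without a correlation between the β and α libraries of one time, treatment and run, RLE factors, other filters and blocks, single runs and left-out libraries were alternatives. CPM are linear, and log2 CPM used a prior count of 2. The script was tested on simulated data.

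Replicate numbers at ZT16 and ZT12 mark the run, which the titles give. The differences of replicate 2 minus replicate 1 at ZT16 and at ZT12 correlated within a condition at -0.0345 to 0.164. Over all 28 pairs of groups the correlation was -0.154 to 0.453, and over 0.1 in 16. Between α and β cells of 1 time and treatment it was 0.230 (ZT12 CTR), 0.328 (ZT12 DOX), 0.302 (ZT16 CTR) and 0.453 (ZT16 DOX). Beyond the run term, edgeR takes the libraries of 1 time and run as independent. Libraries of a group differed by more than sampling noise (χ² per degree of freedom at least 18.6), so none was merged.

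The members and lists were chosen with earlier results of these data known. Named genes were the 12 largest rises and falls with 1 direction in all 8 pairs and at least 10 CPM at the higher time, the 8 largest each way per cell type, all clock genes, up to 6 genes per list, the 8 lowest p-values per test of a difference, and 6 hormone genes. Hsph1, Hspa8, Hspa5, Rrp12 and other list members outside this rule were named after their values were seen. A few genes of the lists are counted with them but not reported here by name.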

Additional observations from a re-analysis of the deposited data

Results flagged for a closer look

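Of 44 summed marker levels tested for a library standing apart within the 4 libraries of a cell type and time, 4 were picked out, and chance picks about 1 in 20. In β cells at ZT16 the later-run DOX library stood above the other 3 in acinar markers (695 CPM) and in macrophage and dendritic cell markers (1736 CPM). In β cells at ZT12 the earlier-run CTR library stood above the other 3 in acinar markers (209 CPM). In α cells at ZT12 the earlier-run DOX library stood apart in red blood cell markers (3.40 CPM). The part of these cells in the changes from ZT12 to ZT16 was not tested. Among 54 genes whose 8 pair differences were examined in the same way, none had a pair standing apart.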

How the results depend on the processing

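Over the 16 libraries 1134 genes were called. DESeq2 called 1913, the later run alone 41, the fit with no replicate block (without the run term) 643, and the fits without 1 library 666 to 1275. The count was under 756, more than 1.5 times lower, for single libraries only without the earlier-run ZT16 DOX β (696), CTR β (729) or CTR α (714) or the earlier-run ZT12 CTR β (698) or DOX α (666) library. The other settings gave 764 (earlier run alone) to 1461 (without both later-run DOX libraries at ZT16, an alternative chosen after seeing the data, as were halved counts, with 1162, and limma voom, with 1263), except limma voom with β and α libraries correlated, also chosen after seeing the data, with 753. In α cells 144 genes were called, against 707 with DESeq2, 334 with all times in 1 fit, 722 in the earlier run alone, 0 in the later run alone, 27 with no replicate block, 74 with the replicate block within each condition and 6 to 400 without 1 library. In β cells 8 were called, against 956 with DESeq2, 2 with RLE factors, 243 with all times in 1 fit, 0 in the earlier and 216 in the later run alone, 0 with a minimum count of 50, 156 with no filter, 0 with no replicate block, 41 with the block within each condition and 0 to 156 without 1 library. The difference between β and α cells gave 0 calls, 84 with DESeq2, 1 in the later run alone, 1 with the block within each condition, 22 with limma voom with β and α libraries correlated and 0 to 1 without 1 library. The difference between DOX and CTR gave 10 calls in β cells with DESeq2, and 0 to 2 in α cells without 1 library. No named gene that was called changed sign under any setting run; of the 1134 genes, 1133 kept their sign without both later-run DOX libraries at ZT16, and the cause of these shifts was not tested. Single runs have 1 library per group and fewer residual degrees of freedom. The shallowest library held 18.7 M counts, which limits the precision of genes of a few CPM.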
